A study of Mus musculus with 8 samples.

Results

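Helper and effector lineages of T cells are each tied to a few transcription factors, and 9 of these were followed here through the splenic T cells of wild-type (WT) and succinate dehydrogenase A knockout (SDHA-KO) mice. They were taken by name, as 9 of the 20170 genes of the deposited table, and their unique molecular identifiers (UMIs, each standing for 1 captured RNA molecule) were summed per library, per CD4 or CD8 class and per T cell subset. The class and the subset of each cell were the authors' own annotation of 12846 cells. All 9 passed the filter on low counts in both classes, Foxp3 in the CD8 class through SDHA-KO libraries alone. After stimulation, SDHA-KO cells of both classes held more Ikzf2 and Batf and less Rora than WT cells, and CD4 class cells held more Gata3.

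A naive T cell that meets antigen can turn into one of several effector types, each with its own cytokines, and a lineage factor switches on the genes of one type while holding back those of another. T-bet, encoded by Tbx21, drives type 1 helper cells, and with Eomes it directs cytotoxic cells. Gata3 drives type 2 cells, and Rora encodes RORα, which acts beside RORγt in type 17 cells and is needed by type 2 innate lymphoid cells. Foxp3 defines regulatory T cells, in which Ikzf2 encodes Helios. Bcl6 drives follicular helper cells and is opposed by Prdm1, which encodes Blimp-1. Batf is an AP-1 family partner of IRF4 that is induced by T cell receptor signals.

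The 8 libraries made 4 groups of 2, named by genotype and treatment. The study names B6 mice as the source of the WT splenic T cells it sequenced, and does not state their Sdha alleles. Elsewhere in the study, as for transplant donors, WT mice carried floxed Sdha alleles without CD4-Cre. SDHA-KO mice carried both Sdha alleles floxed (Sdha fl/fl) and a CD4-Cre transgene, which is active from the thymic stage at which cells express both CD4 and CD8, a stage that γδ T cells do not pass through. The study used young adult mice, and no other allele or agent is given for any group. Magnetically purified splenic T cells were cultured alone (unstimulated) or for 48 h with 5 μg/mL anti-CD3ε and 2.5 μg/mL anti-CD28 (stimulated). Dead cells were removed from all of them before 3′ single-cell RNA sequencing. Within a group the labels call the 2 libraries replicates, and they do not say whether these came from separate mice, so p-values measure the spread between these libraries, which may be technical.

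Unstimulated libraries held 10947009 to 14883158 UMIs and stimulated ones 46201110 to 51398728, and 23 of 12823 distinct barcodes occurred in more than 1 library. Sdha stood at 92.5 and 91.8 CPM (counts per 1000000 UMIs of the summed cells) in the WT unstimulated CD4 class against 45.8 and 46.7 in SDHA-KO, and at 80.1 and 77.4 against 28.9 and 28.6 after stimulation. The corresponding Sdha values of the CD8 class were 76.7 and 79.5 against 35.7 and 34.5, and 89.9 and 86.3 against 60.0 and 55.9. Sdha was thus lower in each SDHA-KO library, although 3′ counts need not lie in the deleted part. Stimulated SDHA-KO CD8 class cells carried another signature: 59.1% and 56.1% of them had a UMI of Trdc, the constant region of the γδ T cell receptor, against 3.67% and 4.92% in WT. The summed level of 8 γδ T cell genes there was 256 to 261 CPM against 18.3 to 21.2 CPM, and that of 7 NK cell genes, Eomes among them, was 207 to 602 CPM against 40.0 to 50.4 CPM. The part of such cells in the results was not tested beyond the strict cells given beside them. A strict cell of the CD8 class had a Cd8a or Cd8b1 UMI and none of Cd4 or Trdc, and a strict cell of the CD4 class had a Cd4 UMI and none of Cd8a, Cd8b1 or Trdc. Mitochondrial UMIs also differed, at a mean of 14.6 to 16.2% of a cell's UMIs in WT stimulated libraries and 5.05 to 5.51% in SDHA-KO stimulated libraries.

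The start regions of 3 members are shown. Gata3 and Rora moved in opposite directions in stimulated SDHA-KO CD4 cells, and the Prdm1 window was the only one of a member to match the AP-1 type motif given below. The sequences are the 250 bases before an annotated start, from RefSeq on GRCm38.p6 (mm10), 5′ to 3′ on the strand of the gene. Gata3 lies at chr2:9857078-9887953 (minus strand) with its window at chr2:9878601-9878850, Rora at chr9:68653404-69388246 (plus strand) with its window at chr9:68653536-68653785, and Prdm1 at chr10:44437174-44528558 (minus strand) with its window at chr10:44458749-44458998. Capitals mark letters of a searched motif on either strand.
Gata3: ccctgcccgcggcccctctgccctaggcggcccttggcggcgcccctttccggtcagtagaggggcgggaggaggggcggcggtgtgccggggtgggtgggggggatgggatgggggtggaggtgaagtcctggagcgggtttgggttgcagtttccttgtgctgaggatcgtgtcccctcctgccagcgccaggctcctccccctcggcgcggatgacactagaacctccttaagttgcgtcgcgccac
Rora: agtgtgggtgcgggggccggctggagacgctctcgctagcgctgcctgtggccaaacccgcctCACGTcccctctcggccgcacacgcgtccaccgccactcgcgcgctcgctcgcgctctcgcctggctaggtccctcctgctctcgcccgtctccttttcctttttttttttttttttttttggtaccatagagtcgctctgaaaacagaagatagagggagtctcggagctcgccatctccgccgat
Prdm1: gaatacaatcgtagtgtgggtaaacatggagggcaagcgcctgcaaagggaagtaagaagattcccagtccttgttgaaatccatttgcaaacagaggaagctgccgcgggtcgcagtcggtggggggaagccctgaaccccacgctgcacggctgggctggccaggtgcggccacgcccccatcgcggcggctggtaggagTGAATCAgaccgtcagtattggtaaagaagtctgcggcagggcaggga
The AP-1 type motif searched for was TGANTCA, with N any base, which 6.75% of all 32851 windows in the RefSeq table held. The Prdm1 match read TGAATCA. The motif of GATA factors was AGATAA, held by 9.99% of the windows. T-box factors were represented by GGTGTGA, held by 3.33%, and the hypoxia response element by its core, ACGTG, held by 16.6%. The Rora window held ACGTG once and the Gata3 window none of the 4 motifs. Windows were found for 8 of the 9 members. Among the others, ACGTG occurred in a Bcl6 window, as a palindrome read on both strands, and AGATAA in a Foxp3 and a Batf window. Such matches are descriptions and not binding sites.

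In resting cells the factors were spread over the subsets in different ways. Values between subsets are given without a test, because the subsets are clusters of these same cells. Foxp3 helped to name the regulatory (Treg) subset, so its level there is no finding: it was 149 and 185 CPM in WT and 194 and 244 CPM in SDHA-KO, and the Treg subset held 79.2 to 87.0% of the Foxp3 UMIs of the CD4 class in 6.54 to 9.86% of its cells. Ikzf2, which the authors did not use for naming, stood at 1345 and 1468 CPM in WT Treg cells and at 9.52 and 6.33 CPM in WT naive CD4 cells. The CD4 effector memory (Tem) subset was between them for Ikzf2, at 493 and 366 CPM in WT. Tbx21 was almost confined to the Tem subset, which held 81.1 to 98.1% of the Tbx21 UMIs of the CD4 class, whereas in naive CD4 cells its level was 0 to 1.34 CPM. Of the CD8 subsets, central memory (Tcm) cells carried Tbx21 at 83.9 and 92.3 CPM in WT against 1.09 and 5.37 CPM in naive cells. Eomes followed with 73.6 and 69.2 CPM in WT CD8 Tcm cells against 14.9 and 13.7 CPM in naive ones. Rora was highest in the CD4 Tem subset. Gata3, Bcl6 and Batf were found in all subsets, Bcl6 at 34.1 and 38.3 CPM in WT naive CD4 cells and 63.0 and 59.3 CPM in WT Treg cells.

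**Figure D1:**
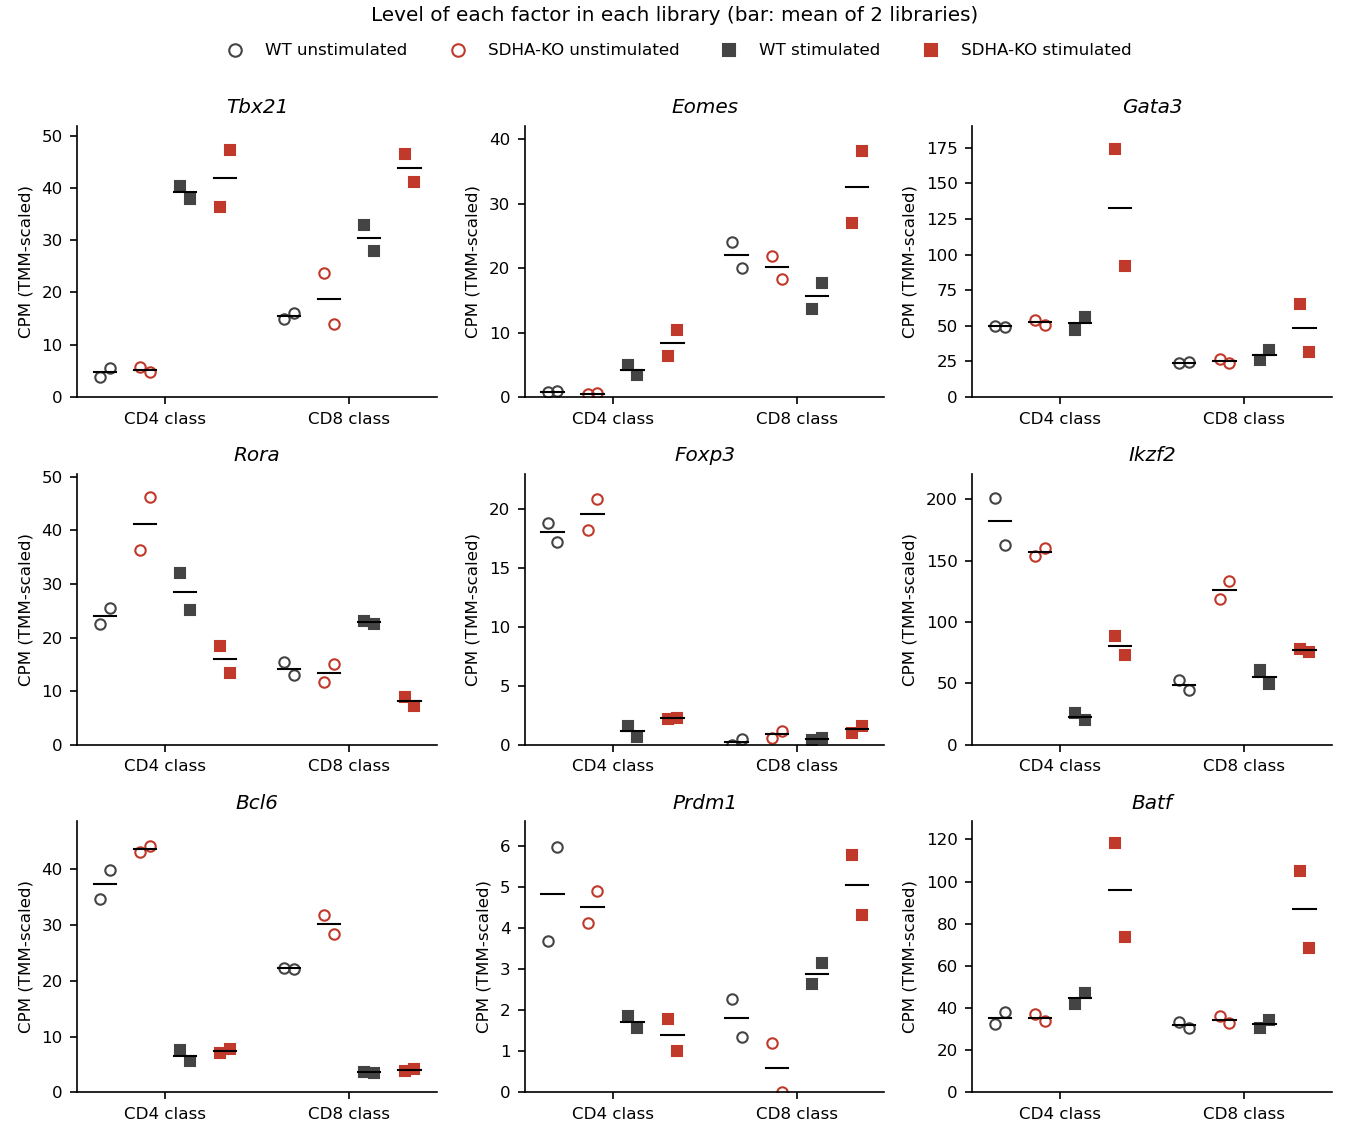
Level of each of the 9 factors in each library, in CPM scaled by edgeR's TMM factors (vertical axes from 0), for the CD4 class (left) and the CD8 class (right) of the 4 groups, open circles unstimulated and filled squares stimulated, with a bar at the mean of 2 libraries. Stimulated SDHA-KO libraries sit above both WT ones for Ikzf2 and Batf and below them for Rora in both classes, as for Ikzf2 in the CD4 class with 88.8 and 73.0 against 25.5 and 19.99 CPM.

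Foxp3 and Ikzf2 met in the same cells. With each cell thinned to 5000 UMIs, so that depth did not set the share, 68.3 to 87.0% of the Foxp3-positive unstimulated CD4 cells of a library had an Ikzf2 UMI, against 7.95 to 9.71% of the others. These shares rest on 38 to 60 Foxp3-positive cells a library. Foxp3 itself was detected in 43.7 and 50.8% of thinned WT Treg cells and in 57.4 and 59.3% of SDHA-KO ones. The CD8 class, which should lack regulatory cells, had a Foxp3 UMI in 0 to 0.635% of thinned unstimulated cells, and naive CD4 cells in 0.397 to 1.40%. In the 8 CD4 class libraries, Tbx21 and Eomes were seen together in at most 11 thinned cells of a library. Eomes was scarce there: in WT stimulated libraries 2.99 and 0.54% of Tbx21-positive cells had its UMI, against 2.08 and 1.97% of the others. SDHA-KO stimulated libraries had 3.35 and 4.70% against 3.04 and 4.36%.

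Stimulation of WT cells shifted the factors first, and this gives the level from which the SDHA-KO cells departed. The test was edgeR's quasi-likelihood test on the summed UMIs of the libraries, with Benjamini-Hochberg adjusted p-values over all genes tested and a threshold of 0.05, and it applies to every adjusted p below. In the WT CD4 class 6 of the 9 changed, 2 higher and 4 lower, where 66.3% of all genes tested changed. The median log2 fold change of the 9 was 0.06 beside 0.08 over all genes. Tbx21 stood at 3.85 and 5.54 CPM in unstimulated and 40.4 and 37.9 CPM in stimulated WT CD4 class libraries, a log2 fold change of 3.05 ± 0.20 (SE; adjusted p = 1.1e-07). Foxp3 went from 18.8 and 17.2 to 1.61 and 0.649 CPM (-4.01 ± 0.28; adjusted p = 2.03e-07) and Ikzf2 from 201 and 163 to 25.5 and 19.99 CPM (-3.0 ± 0.14; adjusted p = 8.78e-09). None of the groups overlapped for these 3 genes. The authors named no Treg subset among stimulated cells, and in a summed class fewer cells of a type and less RNA per cell cannot be told apart. With the unstimulated Treg subset left out, an alternative chosen after the data were seen, the log2 fold change was -1.37 for Ikzf2 and -1.44 for Foxp3. Bcl6 fell by 2.50 and Prdm1 by 1.51, the latter on 23 to 51 UMIs a library, while Gata3, Rora and Batf did not pass the test.

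In the WT CD8 class 3 of 9 changed with stimulation, where 65.7% of all genes did. Tbx21 rose from 14.9 and 16.1 to 32.9 and 27.9 CPM, Rora rose from 15.4 and 12.9 to 23.1 and 22.6 CPM, and Bcl6 fell from 22.3 and 22.1 to 3.73 and 3.43 CPM. The log2 fold changes were 0.97 ± 0.19, 0.70 ± 0.15 and -2.63 ± 0.16 (adjusted p = 0.000886, 0.00206 and 6.03e-08). Bcl6 was thus the member that fell in both classes, and its SDHA-KO values behaved alike, with -2.55 in the CD4 and -2.91 in the CD8 class. The median log2 fold change in the WT CD8 class was 0.30 for the 9 and 0.09 over all genes.

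SDHA-KO cells passed the same test for more of the factors. In their CD4 class all 9 changed with stimulation, where 69.8% of all genes did, with 4 higher and 5 lower. The 3 that had not passed in WT CD4 cells were Gata3, with a log2 fold change of 1.34 ± 0.23, Batf, with 1.44 ± 0.19, and Rora, with -1.38 ± 0.17 (adjusted p = 0.000281, 3.53e-05 and 2.43e-05). Of the 9, 8 changed in the CD8 class, where 68.2% of all genes did, and Foxp3 with 2 to 26 UMIs a library did not pass. Here the median over all genes was itself 0.10, and that of the 9 was 0.69. The test of the difference between the 2 genotypes' responses is the interaction given further on.

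The comparison of stimulated SDHA-KO with stimulated WT cells called 6 of the 9 factors in the CD4 class, 5 higher and 1 lower, where 43.2% of all genes were called (22.7% higher, 20.5% lower). It called 7 of the 9 in the CD8 class, 6 higher and 1 lower, where 50.4% were called (26.8% higher, 23.5% lower). The Foxp3 call of the CD8 class is description only, for the reason given with its values below. These counts of 9 genes are not far from the background. The median log2 fold change of the 9 was 1.01 in the CD4 and 0.73 in the CD8 class, beside 0.00 and -0.01 over all genes tested. The classes differed in make-up: Tcm cells were 62.9 and 61.4% of the WT but 20.8 and 17.4% of the SDHA-KO stimulated CD4 class, and 76.8 and 71.1% against 44.0 and 41.4% of the CD8 class, the others being Tem cells. Batf stood at 22.3 and 25.6 CPM in WT CD4 Tcm and 59.8 and 66.3 CPM in WT CD4 Tem cells. The part of the make-up in the class differences was not tested, and values within subsets are given further on.

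**Figure D2:**
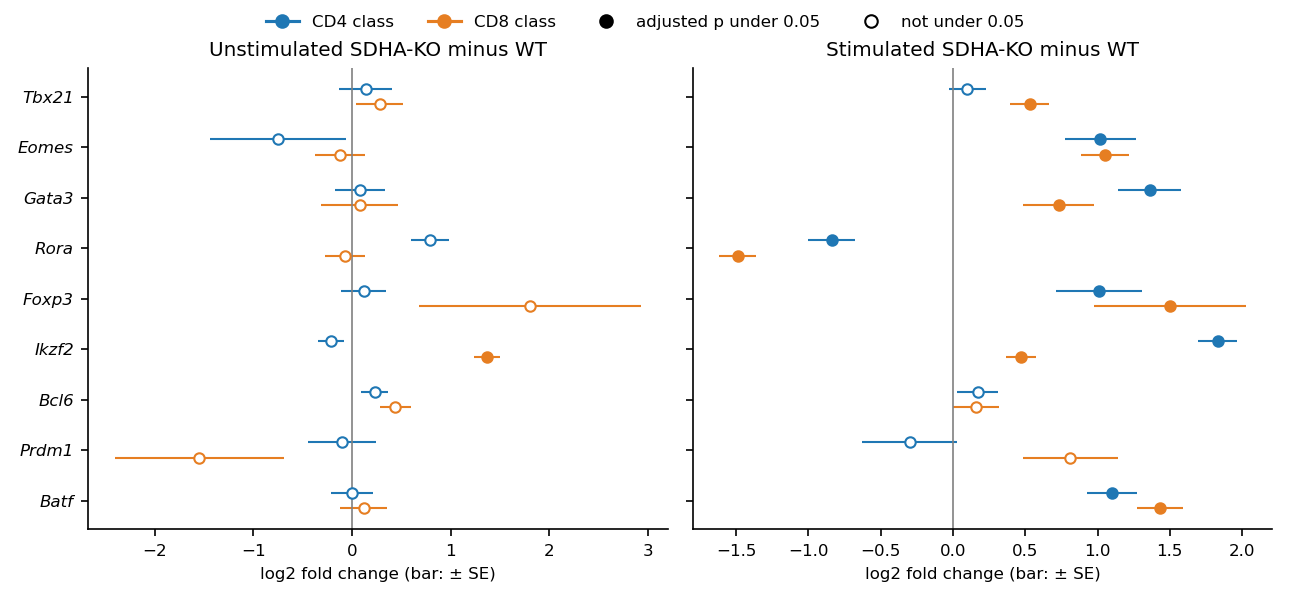
Log2 fold change of SDHA-KO over WT (horizontal axis, point, with a bar of ± 1 SE) for each of the 9 factors, unstimulated on the left and stimulated on the right, in the CD4 class (blue) and the CD8 class (orange). Filled points had an adjusted p under 0.05: among unstimulated cells only Ikzf2 in the CD8 class at 1.37, and among stimulated cells 6 factors in the CD4 and 7 in the CD8 class, with Rora the only one below 0 among them.

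Ikzf2 showed the largest rise of the 9 in the stimulated CD4 class. Its level was 25.5 and 19.99 CPM in WT and 88.8 and 73.0 CPM in SDHA-KO libraries, a log2 fold change of 1.83 ± 0.14 (adjusted p = 3.16e-06), and the groups did not overlap. The CD8 class had 61.2 and 49.6 CPM in WT and 78.4 and 75.3 CPM in SDHA-KO libraries, again without overlap and with a smaller difference of 0.47 ± 0.10 (adjusted p = 0.00295). Among strict CD8 cells the difference was 0.76 (adjusted p = 7.87e-05). Ikzf2 UMIs were concentrated in few cells. The 1% of cells with the most Ikzf2 UMIs in a library held 42.8 and 41.4% of the Ikzf2 UMIs in WT stimulated CD4 class cells and 21.9 and 27.5% in SDHA-KO ones. In thinned cells an Ikzf2 UMI was seen in 7.61 and 7.39% of WT and 18.3 and 13.4% of SDHA-KO stimulated CD4 class cells, so more cells were positive.

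Batf rose in both classes. Its values were 41.9 and 47.2 CPM in WT and 118 and 73.7 CPM in SDHA-KO stimulated CD4 class libraries (1.10 ± 0.17; adjusted p = 0.000459). CD8 class values were 30.6 and 34.2 against 105 and 68.7 CPM (1.43 ± 0.16; adjusted p = 2.91e-05). WT and SDHA-KO libraries did not overlap, and in both classes replicate 1 of SDHA-KO was the higher one: without it the differences were 0.74 and 1.07, and without replicate 2 they were 1.42 and 1.68. Strict CD8 cells gave 1.41. The share of thinned cells with a Batf UMI was 15.2 and 19.2% against 41.2 and 28.9% in the CD4 class, and 13.2 and 12.7% against 34.1 and 25.6% in the CD8 class. Among SDHA-KO stimulated CD8 class cells Batf stood at 114 and 77.1 CPM in cells with a Trdc UMI and at 126 and 74.7 CPM in cells without, so the order differed between the 2 libraries.

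Gata3, the type 2 factor, was 47.3 and 56.1 CPM in WT and 174 and 92.3 CPM in SDHA-KO stimulated CD4 class libraries, a log2 fold change of 1.36 ± 0.22 (adjusted p = 0.000521). The 2 SDHA-KO libraries were far apart and both above WT. Leaving out replicate 1 of SDHA-KO left 0.85, and leaving out replicate 2 left 1.76. In the CD8 class the values were 26.0 and 33.0 against 65.6 and 31.4 CPM, so that replicate 2 of SDHA-KO lay within the WT range. The CD8 difference of 0.73 (adjusted p = 0.0297) thus rested on replicate 1, without which it was 0.08 (adjusted p = 0.667). Other genes listed as markers of type 2 innate lymphoid cells had few UMIs in the stimulated CD4 class. Il1rl1 had 7 and 9 UMIs a library in SDHA-KO and 1 in each WT library. Kit had 21 and 14 against 13 and 2, and Il17rb 5 and 4 against 11 and 16. The part of such cells in the Gata3 difference was not tested. The CD8 call was also lost without replicate 1 of WT stimulated cells, at 0.55 (adjusted p = 0.191), and without any 1 of the 4 unstimulated libraries, at an unmoved 0.73 (adjusted p = 0.0584 to 0.0615).

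Rora was the member that went the other way. Stimulated CD4 class libraries held it at 32.0 and 25.1 CPM (WT) and at 18.4 and 13.5 CPM (SDHA-KO), and the levels were 23.1 and 22.6 against 8.84 and 7.30 CPM in the CD8 class. The groups did not overlap in either class, and the log2 fold changes were -0.84 ± 0.17 and -1.49 ± 0.13 (adjusted p = 0.00194 and 5.78e-06). Strict CD8 cells gave -1.64, and within the stimulated SDHA-KO CD8 class Rora was below its WT level both in cells with a Trdc UMI (8.95 and 6.88 CPM) and without one (11.6 and 9.89 CPM).

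A numbered cluster of the authors, Tem7, held just under 50% of the Rora UMIs of stimulated SDHA-KO CD4 class cells. This cluster took 3.84 and 3.102% of the WT and 8.36 and 7.87% of the SDHA-KO stimulated CD4 class cells, and it held 13.3 and 6.87% of the Rora UMIs in WT but 48.8 and 49.4% in SDHA-KO. The Rora level in Tem7 was 231 and 184 CPM in WT, from 33 and 30 cells, and 177 and 169 CPM in SDHA-KO, from 95 and 101 cells. In all other CD4 class cells Rora was at 30.6 and 25.0 CPM in WT and 10.9 and 7.72 CPM in SDHA-KO. Without Tem7, an alternative chosen after the data were seen, the difference was -1.61 ± 0.16 (adjusted p = 2.28e-05). Tem7 also held 42.4 to 61.2% of the few Foxp3 UMIs and 54.5 to 64.9% of the few Prdm1 UMIs of the SDHA-KO stimulated CD4 class. In WT it held 18.2 and 55.0% of the Foxp3 UMIs and 31.4 and 10.4% of the Prdm1 UMIs. Il17a, the type 17 cytokine, had no UMI in either WT stimulated CD4 class library, and Tem7 held 2834 of its 2914 UMIs in SDHA-KO replicate 1 and 319 of 554 in replicate 2. At full depth, a Trdc UMI was found in 26.3 and 19.8% of the SDHA-KO cells of Tem7 and in 9.09 and 10.0% of the WT cells.

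Of the type 1 factors, Eomes rose and Tbx21 did so only in part. Eomes was 13.7 and 17.7 CPM in WT and 27.0 and 38.2 CPM in SDHA-KO stimulated CD8 class libraries (1.05 ± 0.17; adjusted p = 0.00034), without overlap, and strict cells gave 1.03. In the CD4 class it was low, at 4.90 and 3.44 against 6.41 and 10.4 CPM (1.02 ± 0.24; adjusted p = 0.00582), and the call was lost without replicate 2 of SDHA-KO, at 0.64 (adjusted p = 0.0693), without replicate 2 of WT, at 0.80 (adjusted p = 0.0596), and in strict cells, at 0.93 (adjusted p = 0.0705). Tbx21 was 32.9 and 27.9 against 46.5 and 41.2 CPM in the CD8 class (0.53 ± 0.14; adjusted p = 0.00709). Within the stimulated SDHA-KO CD8 class, on totals without TMM, Tbx21 stood at 63.0 and 54.1 CPM in cells with a Trdc UMI and at 35.1 and 32.9 CPM in cells without. On the same scale WT cells had Tbx21 at 29.5 and 34.6 CPM with such a UMI and at 39.3 and 32.0 CPM without. Among strict CD8 cells its difference from WT was 0.01 (adjusted p = 0.942), and without replicate 2 of WT stimulated cells it was 0.40 (adjusted p = 0.0894). In the CD4 class Tbx21 was 40.4 and 37.9 in WT against 36.4 and 47.2 CPM in SDHA-KO, with overlapping groups and a difference of 0.10 ± 0.13 (adjusted p = 0.578).

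Foxp3, Bcl6 and Prdm1 were scarce after stimulation. Foxp3 had 20 to 85 UMIs in a stimulated CD4 class library, at 1.61 and 0.649 CPM in WT and 2.18 and 2.30 CPM in SDHA-KO (1.01 ± 0.30; adjusted p = 0.0181). In strict CD4 cells this difference was 0.18 (adjusted p = 0.804), and without Tem7 it was 0.54 (adjusted p = 0.369). Without replicate 2 of SDHA-KO it was 0.99 (adjusted p = 0.053) and without replicate 2 of WT 0.49 (adjusted p = 0.128). In the CD8 class Foxp3 had 9 to 26 UMIs a library and a call at 1.5 (adjusted p = 0.0333) that DESeq2 did not give (adjusted p = 0.146). Its level in that class was 0.365 and 0.545 CPM in WT and 1.03 and 1.61 CPM in SDHA-KO libraries. It passed the filter on low counts there through SDHA-KO libraries alone. The direction was thus favoured beforehand, and this call is description only. Bcl6 was 7.53 and 5.68 against 6.96 and 7.84 CPM in the CD4 class, with overlapping groups (0.17; adjusted p = 0.349). Prdm1 was 1.86 and 1.56 against 1.79 and 1.00 CPM there (-0.30; adjusted p = 0.485). It was 2.63 and 3.15 against 5.78 and 4.33 CPM in the CD8 class, where the groups did not overlap but the test was not passed (0.81 ± 0.33; adjusted p = 0.0599).

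Before stimulation the genotypes differed in few of the factors. In the CD4 class the test called 0 of 9, where 1.1% of all genes were called and 2282 had an unadjusted p under 0.05. DESeq2 called 1 of the 9, Rora. Rora had the lowest adjusted p, with 22.5 and 25.5 CPM in WT and 36.3 and 46.2 CPM in SDHA-KO libraries (0.79 ± 0.19; adjusted p = 0.0808), and the groups did not overlap. A single member of 9 was called in the CD8 class, where 0.947% of all genes were. This was Ikzf2, at 53.1 and 44.8 CPM in WT and 119 and 133 CPM in SDHA-KO libraries, a difference of 1.37 ± 0.13 (adjusted p = 0.000794). Strict CD8 cells gave 1.02 (adjusted p = 0.00212), and without replicate 2 of the WT unstimulated libraries the value was 1.25 (adjusted p = 0.0536). The summed γδ T cell genes were at 177 to 235 CPM in SDHA-KO and 31.3 to 31.9 CPM in WT in this class.

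Within the authors' subsets, the unstimulated comparison called 3 of 33 pairs of a member and a subset. Ikzf2 rose in naive CD8 cells, from 20.4 and 26.9 to 98.2 and 75.7 CPM (1.85 ± 0.16; adjusted p = 2.7e-09), where 5.0% of all genes were called. In thinned naive CD8 cells an Ikzf2 UMI was seen in 6.84 and 8.87% of WT and 22.4 and 17.9% of SDHA-KO cells, and strict cells gave a log2 fold change of 1.75. In naive CD4 cells Ikzf2 rose from 9.52 and 6.33 to 26.1 and 13.9 CPM (1.32 ± 0.26; adjusted p = 0.00465), where 3.57% of genes were called, and strict cells gave 0.99 (adjusted p = 0.0889). In CD4 Treg cells, where 0.706% of genes were called, no member was, and Ikzf2 differed by 0.01 ± 0.09 and Foxp3 by 0.39 ± 0.17. The CD8 Tcm subset had 0.496% of genes called and no member.

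Rora rose in unstimulated CD4 Tem cells. It was 106 and 147 CPM in WT and 259 and 352 CPM in SDHA-KO libraries, from 67 to 91 cells each, a difference of 1.25 ± 0.16 (adjusted p = 1.5e-06), where 7.83% of genes were called. In thinned Tem cells a Rora UMI was seen in 32.4 and 45.6% of WT and 70.8 and 72.4% of SDHA-KO cells. Strict CD4 Tem cells gave 1.69 (adjusted p = 5.85e-05). Across the whole unstimulated SDHA-KO CD4 class, cells with a Trdc UMI had Rora at 161 and 184 CPM and those without at 21.6 and 30.7 CPM. In WT the cells with a Trdc UMI, 34 and 27 of them, had 32.1 and 10.0 CPM, and those without had 20.2 and 23.7 CPM. The direction of the Rora difference in the CD4 Tem subset was thus the opposite of the one in stimulated CD4 class cells.

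**Figure D3:**
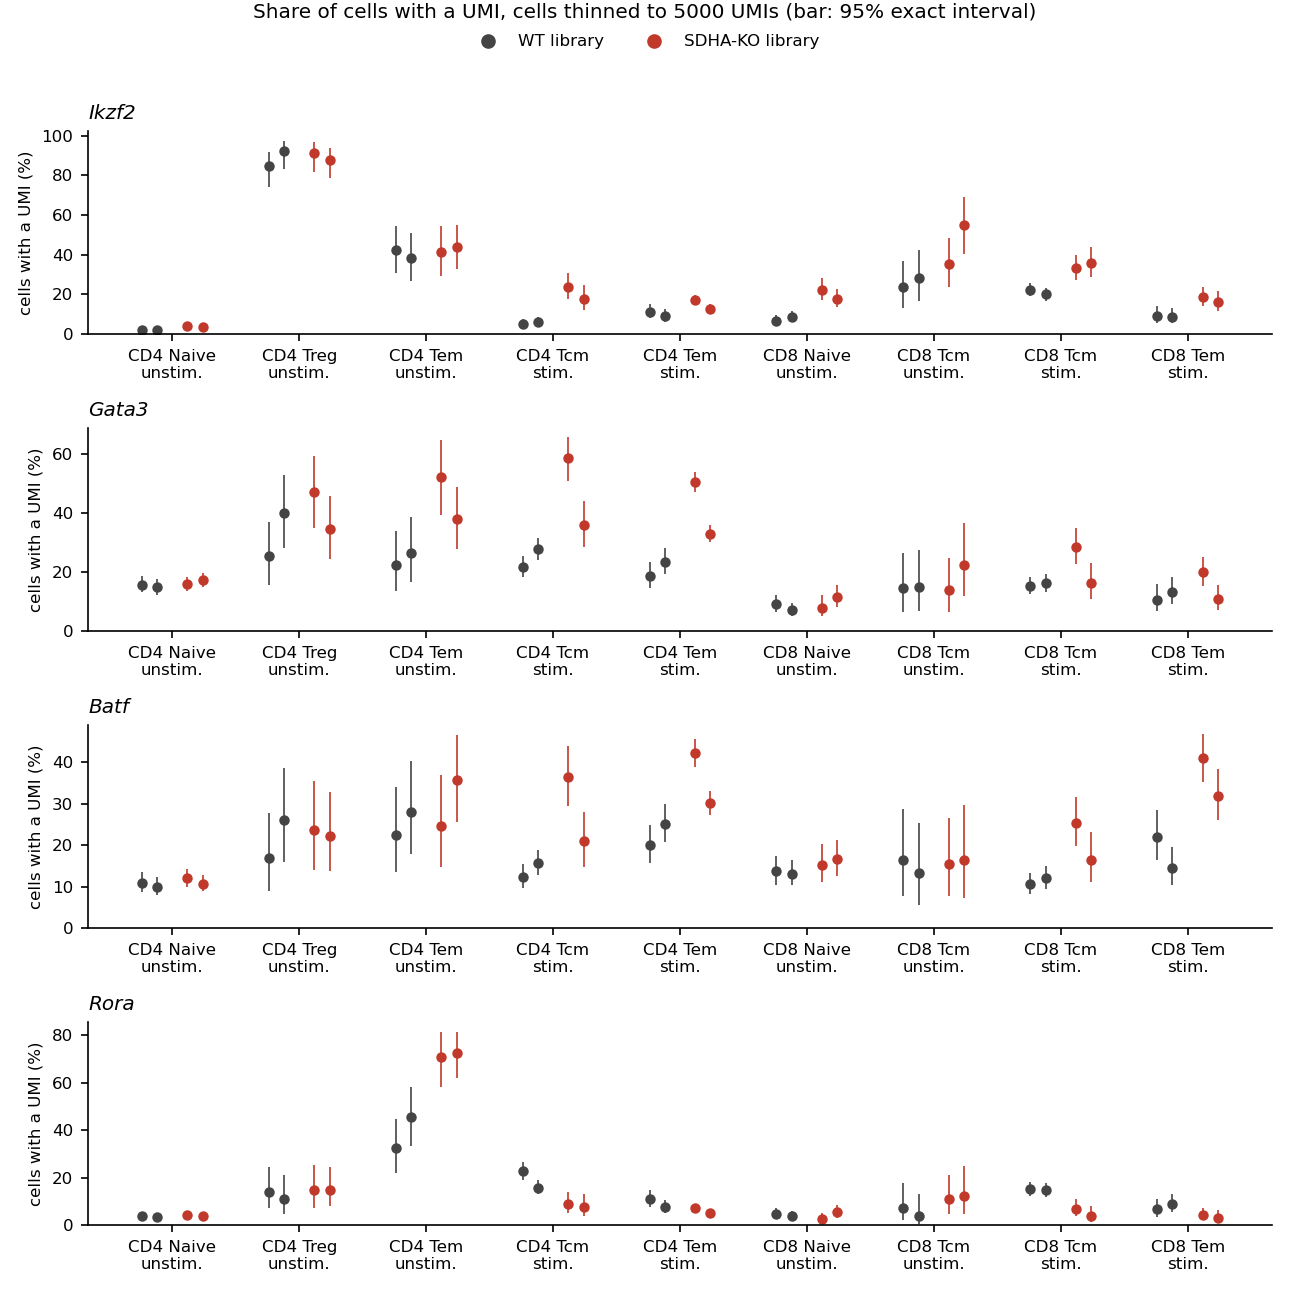
Share of cells with a UMI of Ikzf2, Gata3, Batf and Rora (vertical axes, percent, from 0) in each subset of each library, with each cell thinned to 5000 UMIs; points are WT (grey) and SDHA-KO (red) libraries and bars are 95% exact binomial intervals, which cover counting error only. Ikzf2 rises from 6.84 and 8.87% to 22.4 and 17.9% in unstimulated naive CD8 cells, and Rora from 32.4 and 45.6% to 70.8 and 72.4% in unstimulated CD4 Tem cells.

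After stimulation, 18 of 34 pairs of a member and a subset were called. In CD4 Tcm cells, with 25.1% of all genes called, they were Gata3 (1.44 ± 0.21), Ikzf2 (2.74 ± 0.14), Batf (1.15 ± 0.29) and Rora (-1.22 ± 0.23). In CD4 Tem cells, with 31.7% called, Gata3 (1.28 ± 0.28), Ikzf2 (1.63 ± 0.16) and Batf (0.78 ± 0.21) rose, while Rora at -0.55 did not pass (adjusted p = 0.0599). The Batf call in CD4 Tem cells was lost with DESeq2 (0.78; adjusted p = 0.0857), with limma (0.30; adjusted p = 0.117) and without replicate 1 of WT (0.70; adjusted p = 0.0789), and the one in CD4 Tcm cells without replicate 1 of WT (1.04; adjusted p = 0.062). The level of Ikzf2 in CD4 Tcm cells was 28.7 and 21.4 CPM in WT and 154 and 178 CPM in SDHA-KO libraries. In CD4 Tem cells it was 28.3 and 22.7 against 88.4 and 68.8 CPM, and there the call depended on how cells were weighted, since thinning each cell to 5000 UMIs left 0.04 (adjusted p = 0.894). WT cells of the 2 subsets were unlike in depth, with a median of 10849 and 10875 UMIs in CD4 Tcm and 60983 and 61520 in CD4 Tem cells, and with 21.4 and 20.3% against 3.59 and 3.39% mitochondrial UMIs. The genotypes differed in depth within each subset as well, since SDHA-KO medians were 6871.5 and 7418 UMIs in CD4 Tcm and 28229 and 28380 in CD4 Tem cells. SDHA-KO CD4 Tcm cells had 11.7 and 12.2% mitochondrial UMIs, and among cells under 10% the Ikzf2 difference in CD4 Tcm was 1.20 (adjusted p = 0.0501).

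In the CD8 class, stimulated Tcm cells, with 27.9% of all genes called, had 6 calls and Tem cells, with 33.4%, had 5. Rora (-1.20 ± 0.14 and -1.46 ± 0.14), Ikzf2 (0.81 ± 0.11 and 0.77 ± 0.09), Batf (1.14 ± 0.22 and 1.18 ± 0.19) and Eomes (1.40 ± 0.28 and 0.61 ± 0.16) were called in both subsets. The Tcm calls also held Gata3 (0.77) and Prdm1 (1.31), and the Tem calls Tbx21 (0.58). Among strict cells Rora and Ikzf2 remained called in both subsets, at -2.03 and -1.34 and at 1.18 and 1.21, and the calls of Gata3, Prdm1 and Tbx21 were lost, as was that of Eomes in Tem cells. Calls in Tcm cells were also lost when 1 WT library was left out, those of Batf, Eomes, Gata3 and Prdm1 without either one (adjusted p = 0.0563 to 0.218) and that of Ikzf2 without replicate 2 (0.69; adjusted p = 0.0607). Without replicate 1 of SDHA-KO, Gata3 was at 0.24 (adjusted p = 0.308) and Prdm1 at 0.91 (adjusted p = 0.117) in Tcm cells. Eomes in Tem cells was at 0.41 (adjusted p = 0.0712) without replicate 2 of SDHA-KO and 0.47 (adjusted p = 0.128) without replicate 1 of WT. Rora levels were 34.3 and 32.2 against 15.5 and 13.5 CPM in Tcm cells and 19.7 and 22.2 against 8.50 and 7.17 CPM in Tem cells, with no overlap in either.

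**Figure D4:**
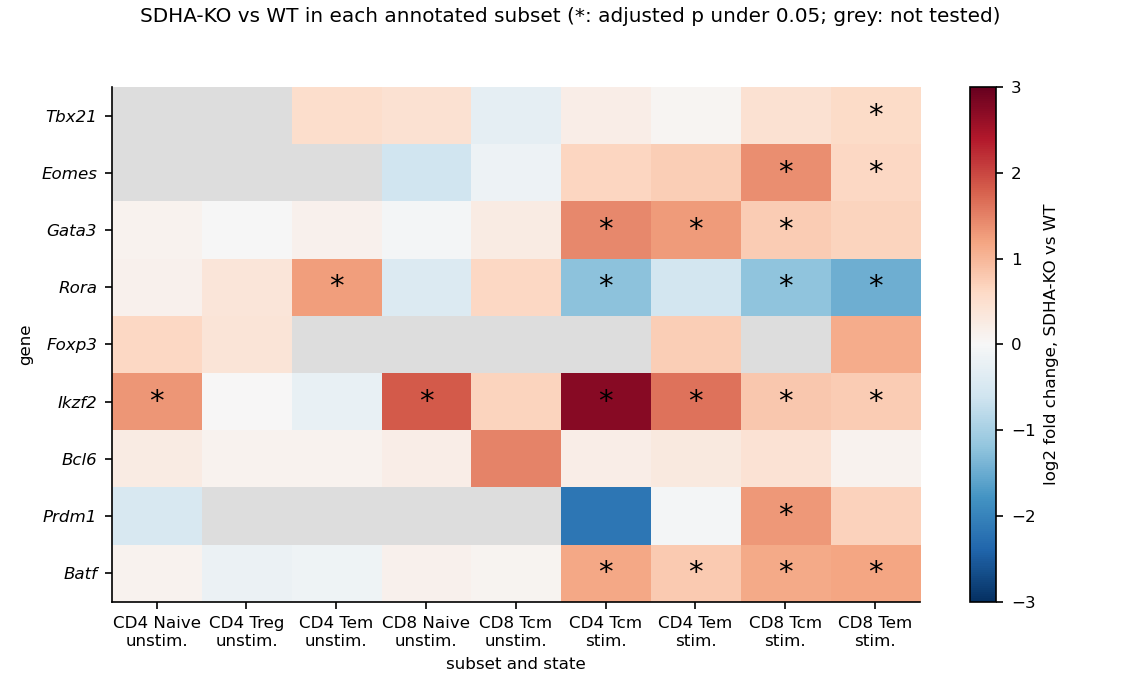
Log2 fold change of SDHA-KO over WT (colour) for each factor (vertical axis) within each subset of the authors (horizontal axis), with a mark where the adjusted p was under 0.05 and an empty cell where the factor did not pass the filter on low counts. Of the unstimulated subsets, 3 pairs are marked, and of the stimulated ones 18, with Rora the only factor marked below 0.

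The effect of SDHA-KO differed between states, by the interaction of genotype and stimulation, for 4 of 9 factors in the CD4 class, where 21.4% of all genes differed, and for 4 of 9 in the CD8 class, where 23.8% did. In both classes Rora (-1.63 and -1.42), Batf (1.10 and 1.31) and Ikzf2 passed, and Ikzf2 had opposite signs, 2.04 in the CD4 and -0.90 in the CD8 class. Gata3 passed in the CD4 class and Eomes in the CD8 class. Between the classes the stimulated effect differed for 4 of 9 factors, where 22.4% of all genes differed, and the unstimulated effect for 1, Ikzf2, where 0.551% did.

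Genes that act beside these factors were read from lists of partner factors and of helper programs, against the background of 43.2% of all genes called in the stimulated CD4 class (22.7% higher, 20.5% lower) and 50.4% in the CD8 class (26.8% higher, 23.5% lower). Of 29 partner factors tested in the stimulated CD4 class, 13 were higher and 6 lower in SDHA-KO than in WT, with a median log2 fold change of 0.34. Tcf7, a factor of naive and memory cells, stood at 50.0 and 53.9 CPM in WT and 96.2 and 86.5 CPM in SDHA-KO libraries (0.81), and Ikzf3, which encodes Aiolos of the Helios family, rose by 0.67. Nfil3 (-0.77) and Id3 (-0.63), an inhibitor of E proteins, fell. In the CD8 class 8 of 28 were higher and 8 lower, with a median of 0.03, so the count was near the background. Zbtb32 (1.24) and Runx2 (1.09) rose most there, while Stat5b, a transducer of interleukin-2 signals (-0.70), and Ikzf4, which encodes Eos (-0.48), fell.

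Of the 11 type 1 genes, 7 were higher and none lower in the stimulated SDHA-KO CD4 class, and 8 higher and none lower in the CD8 class, with medians of 0.77 and 1.23, where 22.7% and 26.8% of all genes were higher. The summed 7 NK cell genes were at 25.7 to 188 CPM in SDHA-KO and 4.85 to 7.0 CPM in WT stimulated CD4 class libraries, and their part in these counts was not tested. Ifng, the type 1 cytokine, was 32.7 and 49.9 CPM in WT and 384 and 186 CPM in SDHA-KO CD4 class libraries (2.78 ± 0.41), while its factor Tbx21 did not pass the test there. The chemokine genes Ccl3 (2.73) and Ccl4 (2.15) rose in the CD8 class, Ccl3 from 111 and 95.3 to 521 and 853 CPM. Of 9 type 2 genes tested in the CD4 class, 4 were higher and 1 lower (median 1.01), and of 8 in the CD8 class 4 were higher and 1 lower (median 2.02). Il13 stood at 8.37 and 0.649 against 103 and 7.63 CPM in the CD4 class, so that SDHA-KO replicate 2 lay below WT replicate 1, and at 5.92 and 1.21 against 80.6 and 66.3 CPM in the CD8 class. Il4ra, the receptor chain for interleukin-4, fell in both classes, by 0.50 and by 0.69.

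Of 10 type 17 genes tested in the CD4 class, 8 were higher in stimulated SDHA-KO cells and none lower. Of 6 tested in the CD8 class all 6 were higher. The filter on low counts admits a gene that reaches the minimum in 1 group alone. For a gene near 0 in WT that entered through SDHA-KO the direction was set beforehand, so these counts are description only. The background of genes called higher was 22.7% and 26.8%. The 8 γδ T cell genes summed to 17.95 to 22.2 CPM in SDHA-KO and 5.81 to 6.40 CPM in WT stimulated CD4 class libraries, and their part was not tested. Il17a was at 94.8 and 14.98 CPM in SDHA-KO stimulated CD4 class libraries and had no UMI in WT, so no fold is given. Of 13 genes of the regulatory T program, 2 were higher and 3 lower in the CD4 class (median -0.23), and 2 were higher and 8 lower in the CD8 class (median -0.48). The CD4 counts of the regulatory and of the follicular genes lay below the 43.2% of all genes called there. Ctla4, an inhibitory receptor, fell from 227 and 246 to 150 and 107 CPM in the CD4 class (-0.89) and from 320 and 339 to 106 and 84.8 CPM in the CD8 class (-1.78). Capg, which encodes an actin-capping protein, rose by 0.79 and 1.01. Of 10 follicular genes tested in the CD4 class, 3 were higher and none lower, and of 9 in the CD8 class 5 were higher and 1 lower. Pdcd1, which encodes PD-1, rose in the CD8 class from 14.95 and 15.1 to 35.7 and 49.0 CPM (1.49), and Icos fell there by 0.85.

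The genes whose pattern was most like that of a factor were sought over 93 sums per library, class and numbered cluster of the authors. Values were log2(CPM + 1) centred within each state. The sums share libraries, depth and the state of their cells, so the correlations describe these sums and carry no p. For Foxp3 the nearest were Il2ra (Pearson r = 0.77), Tnfrsf4 (0.71) and Cish (0.70). For Ikzf2 they were Osbpl3 (0.80), Il2rb (0.80) and Map3k8 (0.79), and for Eomes Dnajc15 (0.79), Nkg7 (0.78) and Ly6c2 (0.77). Tbx21 was nearest to Ccl5 (0.76), Sntb2 (0.76) and Plek (0.74). Rora was nearest to Dapp1 (0.76), Nek7 (0.75) and Icos (0.74), and Gata3 to Samsn1 (0.83), 2310001H17Rik (0.81) and Arap2 (0.79). Batf followed Hcls1 (0.79), S100a10 (0.78) and Capza2 (0.77), and the nearest genes of Bcl6 were Ptger4 (0.72), Cast (0.71) and Frmd6 (0.70). Prdm1 was nearest to Xbp1 (0.67), Riok3 (0.63) and Ripk2 (0.60).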

How the data were processed

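Splenic T cells of 8 libraries in 4 groups were profiled by 10x Genomics 3′ single-cell RNA sequencing. The authors deposited UMI counts per gene and cell, not normalized, with a table of each cell's library, class, subset and the percent of its UMIs from mitochondrially encoded genes. Per the labels' processing notes, the tools were bcl2fastq and Cell Ranger and the genome build mm10, with versions not given in the sources used here. The authors clustered the cells with Seurat, dropped clusters without Cd3 genes, set the class from the ratio of Cd4 to Cd8a and the subsets from Foxp3, Cd44 and other markers. A step for doublets is not given in the sources used here beyond a limit on genes per cell, and no caller was run.

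UMI counts were summed per library, class and subset, and the sums of the 4 groups were fitted together in edgeR 4.0.16 (R 4.3.3; filterByExpr with a minimum count of 10 and a total of 15, TMM, glmQLFit and glmQLFTest), with Benjamini-Hochberg adjustment over all genes tested and a threshold of 0.05. Subsets were fitted one by one where each library held at least 20 cells, and the interaction between classes used both sums of each library. Levels are CPM on TMM-scaled totals in class and subset sums, and on plain totals for Sdha, marker lists, clusters and cells split by Trdc. For shares of cells with a UMI, each cell was thinned to 5000 UMIs and shallower cells were left out. A comparison of 2 libraries against 2 cannot go below p = 0.33 in an exact permutation test, so single values were not tested that way. On simulated counts for stimulated SDHA-KO against WT, 100% of genes changed by 1 on the log2 scale were recovered in both classes, and of those changed by 0.5, 68.9% among 14289 genes in the CD4 and 64.4% among 13035 in the CD8 class. Of the genes left unchanged, 8 in the CD4 and 11 in the CD8 class were called. The changed genes stood above 20 CPM in stimulated WT cells, and all genes were drawn with a common spread between libraries. These shares thus do not apply to members below 20 CPM or with libraries further apart.

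Alternatives were DESeq2 1.42.0, limma 3.58.1 on mean log values, no TMM, no filter, mitochondrially encoded genes left out, thinned cells, cells under 10% mitochondrial UMIs, strict cells, only the 4 libraries compared, a replicate block and each library left out. Members and gene lists were chosen with earlier results of these data known. All members are named. Genes named from a list were among its 2 largest called rises and falls, at 20 CPM or more on average. Il17a UMIs by cluster were looked up after their values were seen. Genes within that rule but left out above were Cd200 (0.84 in the CD4 and 0.91 in the CD8 class) and Izumo1r (-0.4 and -0.94). So were Ccl3 (2.41) and Tnfrsf18 (0.33) in the CD4 class, and Il24 (2.94) in the CD8 class. Genes of like pattern were the 3 with the highest r per member, among genes of at least 20 CPM and sums of at least 50 cells.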

Additional observations from a re-analysis of the deposited data

Results flagged for a closer look

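The effect of SDHA-KO differed between the CD8 and the CD4 class for 4 of the factors after stimulation, by an edgeR interaction test over 4 stimulated libraries. The difference of log2 fold changes, CD8 minus CD4, was -0.67 for Gata3 (adjusted p = 0.00177), -0.69 for Rora (adjusted p = 0.0127) and -1.37 for Ikzf2 (adjusted p = 0.000325), and 0.31 for Batf (adjusted p = 0.0192). Ikzf2 thus rose by more in CD4 than in CD8 class cells. Rora fell by more in the CD8 class as a whole, at -1.49. Within Tcm cells the values were -1.22 in the CD4 and -1.20 in the CD8 class, and within Tem cells -0.55 and -1.46. Without cluster Tem7, left out of the CD4 class only and after the data were seen, the CD4 value was -1.61. The part of this cluster in the Rora difference between classes was not tested. The Rora difference was not called without replicate 1 of SDHA-KO (-0.59; adjusted p = 0.0635), with DESeq2, with limma or in thinned cells, and that of Batf was not called with DESeq2, with limma, in thinned cells or without replicate 2 of SDHA-KO or either WT library (adjusted p = 0.0545 to 0.0979). Before stimulation the order of the classes was the opposite for Ikzf2, with a difference of 1.61 (adjusted p = 2.55e-12), and no other factor passed. The CD8 class of stimulated SDHA-KO libraries had the larger share of cells with a Trdc UMI, and its part in these differences was not tested.

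The effect of SDHA-KO also differed between stimulated and unstimulated cells of one class, by the same kind of test over 8 libraries. In the CD4 class the difference, stimulated minus unstimulated, was 1.28 for Gata3 (adjusted p = 0.0197), -1.63 for Rora (adjusted p = 0.00132), 2.04 for Ikzf2 (adjusted p = 6.77e-05) and 1.10 for Batf (adjusted p = 0.0167). In the CD8 class it was 1.17 for Eomes (adjusted p = 0.0177), -1.42 for Rora (adjusted p = 0.00209), -0.90 for Ikzf2 (adjusted p = 0.00358) and 1.31 for Batf (adjusted p = 0.0077). With 1 library left out, the call of Gata3 in the CD4 class was lost in 5 of 8 cases (adjusted p = 0.0534 to 0.0836), that of Eomes in 5 of 8 (0.0523 to 0.115), and that of Batf in 2 of 8 in each class (0.0543 to 0.0964). Ikzf2 was the factor whose SDHA-KO effect was called in both states of the CD8 class, at 1.37 and 0.47.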

How the results depend on the processing

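Ikzf2, Batf and Rora kept their direction and their call in stimulated SDHA-KO against WT cells of both classes under each class-level alternative tried. Counts of called members moved as follows. For the stimulated effect between classes, 4 members became 2 with DESeq2 and 1 with limma, and for the unstimulated one 1 became 0 with DESeq2, 0 with limma and 2 without a filter. Stimulated SDHA-KO against WT in the CD8 class fell from 7 to 4 in thinned cells. WT stimulation in the CD8 class rose from 3 to 6 in thinned cells, 6 without TMM and 5 with limma. Unstimulated SDHA-KO against WT in the CD4 class went from 0 to 1 with DESeq2, without a filter and in only the 4 libraries compared, and within subsets from 3 to 5 without a filter.

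Of 2728 values under an alternative, 127 that were called neither way changed sign, and 8 that were called in at least 1 of the 2 did. The difference between classes after stimulation was -0.06 for Batf in thinned cells and -0.03 with limma, and 0.01 for Rora with limma. Stimulation of SDHA-KO cells gave 0.50 (adjusted p = 0.0121) for Ikzf2 in the CD4 class without the Treg subset, chosen after seeing the data, and 0.10 with limma, and 0.07 in the CD8 class with limma. WT stimulation in the CD8 class gave -0.53 for Batf in thinned cells and -0.33 for Ikzf2 in cells under 10% mitochondrial UMIs. The causes were not tested. CD8 Tem without cluster Tem6 and the CD4 class without Tem7 were also chosen after seeing the data, and the former left 18 calls within subsets.

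With each library left out in turn, counts ranged from 4 to 6 in the CD4 and 5 to 7 in the CD8 class for stimulated SDHA-KO against WT, 12 to 20 within stimulated and 3 to 5 within unstimulated subsets, and 0 to 1 in both classes for unstimulated cells. They ranged from 5 to 7 in the CD4 and 3 to 5 in the CD8 class for WT stimulation, 9 to 9 and 5 to 8 for SDHA-KO stimulation, 2 to 5 in both classes for the interaction with state, and 3 to 4 and 1 to 1 for the stimulated and unstimulated differences between classes. A group left with 1 library was assumed to vary like the others.

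Replicate numbers did not pair the libraries, with correlations of deviations between same-numbered libraries of -0.19 to 0.08. With the replicate block, 152 of 157 values of a member in a comparison kept their direction and call, 4 changed call and 1 that was not called changed sign. The 4 were Batf (0.74; adjusted p = 0.0503) and Rora (-0.54; adjusted p = 0.0176) in stimulated CD4 Tem cells, Gata3 in stimulated CD8 Tcm cells (0.72; adjusted p = 0.075), and Eomes in WT stimulation of the CD8 class (-0.48; adjusted p = 0.0446). Low UMI counts limit Foxp3 and Prdm1 after stimulation.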
